A study of Mus musculus with 8 samples.

Results

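Gap junction connexins and the related pannexins were followed in mouse bladder as 9 named genes: Gja1, Gja4, Gja5, Gjc1, Gjb1, Gjb2, Gjb5, Panx1 and Panx3, out of 38926 gene symbols counted. They were chosen by symbol, with earlier results of these data known. Whole bladder tissue came in 4 samples labelled NeMO, a partial obstruction of the bladder outlet that leaves the nerves intact, and 4 labelled Sham, the operated controls without obstruction. Each library holds polyA RNA read counts, with 27212499 to 36375313 counts in all. The sources used here do not give strain, sex, age or the time after surgery. Nothing in the labels ties a library to an animal of its own, and the spread behind every p-value may therefore be technical. Batch marks in the submitted file names put 2 NeMO and 3 Sham libraries in batch 1 and 2 NeMO and 1 Sham library in batch 2.

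Connexins assemble in rings in the membrane, and the ring of one cell docks with that of its neighbour to make a channel that passes ions and small messengers between both cells. In the bladder wall Cx43 (Gja1) and Cx45 (Gjc1) are known for coupling smooth muscle and interstitial cells, Cx37 (Gja4) and Cx40 (Gja5) for coupling the cells of vessel walls, and Cx26 (Gjb2) belongs to epithelia. Pannexins resemble connexins in shape but mostly work as single-membrane channels, and Panx1 is known as a route by which stretched urothelium releases ATP.

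All members are protein-coding genes, and each file gives 1 count per gene, without exons or isoforms. On mm10, with GENCODE positions, Gja1 lies on chromosome 10 (56377330 to 56402513), Gja5 on chromosome 3 (96904693 to 97077416), Gjc1 on chromosome 11 (102799579 to 102819700), Gjb2 on chromosome 14 (57098600 to 57104702) and Gjb1 on chromosome X (101376378 to 101385629). Panx1 (15002128 to 15045478) and Panx3 (37659902 to 37669235) share chromosome 9. Gja4 (127311421 to 127314039) and Gjb5 (127354809 to 127358181) lie near each other on chromosome 4.

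Promoter letters are shown for the member with the highest single value (Gja1), for the member whose pattern over libraries was closest to it (Gja5), and for the pair with the smallest unadjusted p (Gja4 and Gjb2). The lines give the 250 bases before the start site, 5′ to 3′ on the gene's strand, from RefSeq on GRCm38.p6, the assembly that mm10 names. They lie at chr10:56377050-56377299 (plus strand) for Gja1, chr3:97032152-97032401 (plus) for Gja5, chr4:127314040-127314289 (minus) for Gja4 and chr14:57104703-57104952 (minus) for Gjb2. Capitals mark matches to 6 motifs searched on both strands: TGANTCA (AP-1), TGACG (the core of the cyclic AMP response element), GGGCGG (Sp1), CACGTG (E-box), GGAATG (TEAD) and the CArG box.
Gja1: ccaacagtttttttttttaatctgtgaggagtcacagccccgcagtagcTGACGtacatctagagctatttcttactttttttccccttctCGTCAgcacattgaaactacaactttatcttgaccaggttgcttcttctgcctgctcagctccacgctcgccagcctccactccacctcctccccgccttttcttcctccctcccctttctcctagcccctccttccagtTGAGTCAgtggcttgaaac
Gja5: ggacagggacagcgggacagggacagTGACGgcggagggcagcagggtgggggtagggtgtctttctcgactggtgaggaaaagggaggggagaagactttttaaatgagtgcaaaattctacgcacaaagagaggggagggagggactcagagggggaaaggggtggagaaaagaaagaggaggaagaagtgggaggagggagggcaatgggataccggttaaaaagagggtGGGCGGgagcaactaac
Gja4: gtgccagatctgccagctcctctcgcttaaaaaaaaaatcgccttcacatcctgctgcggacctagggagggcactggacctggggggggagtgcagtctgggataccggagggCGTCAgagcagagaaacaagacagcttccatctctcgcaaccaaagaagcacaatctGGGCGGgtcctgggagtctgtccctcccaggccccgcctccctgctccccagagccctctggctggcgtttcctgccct
Gjb2: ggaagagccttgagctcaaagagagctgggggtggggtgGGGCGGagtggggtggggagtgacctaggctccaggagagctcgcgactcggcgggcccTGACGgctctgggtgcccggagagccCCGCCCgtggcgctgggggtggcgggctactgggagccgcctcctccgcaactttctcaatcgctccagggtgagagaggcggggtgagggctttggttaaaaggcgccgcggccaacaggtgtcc

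Among the 7 members with a promoter entry, Gja1 alone held a TGANTCA match, at −19 from the start site, a motif present in 6.75% of 32851 promoters of the same length. It also held TGACG at −201 and, on the other strand, at −159. TGACG was also found in Gja5 at −224, in Gja4 at −136, in Gjb2 at −152 and in Panx1 at −47, against 17.8% of all promoters. GGGCGG occurred in Gja5 at −17, in Gja4 at −79, in Gjb2 at −211 and −126 and in Gjb1 at −203, −182 and −111 (in 1 of its 4 promoter entries), and in 32.7% of all promoters. GGAATG (12.6% of all promoters) occurred in Gjb1 at −226, in another of its entries. CACGTG (6.02%) and the CArG box (1.47%) gave no match in the 7 members, and Gjb5 held no match to any of the 6 motifs. No matches of different motifs overlapped. These matches describe letters only and say nothing of which factors bound.

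Scaled to gene length, Gjb2, Gja1, Gja4 and Gjc1 stood at similar levels, above Gja5, Gjb5 and Gjb1 in every library and far below the epithelial connexin Gjb6 (Cx30), which is no member. Gjb2 had 7.39 CPM per kilobase (CPM being TMM-normalised read counts at equal library size, divided by the summed length of the gene's exons; mean over 8 libraries, range 4.91 to 11.3). Gja1 had 5.88 CPM per kilobase (4.36 to 10.6), Gja4 5.42 (3.99 to 8.61) and Gjc1 5.25 (4.46 to 6.49). The ranges of these 4 genes overlapped, so their order does not exceed the spread between libraries. Panx1 followed at 3.19 (2.71 to 3.61), below the lowest Gjc1 library, and its range overlapped that of Gjb5, at 2.23 (1.22 to 3.62). Gja5 had 1.25 CPM per kilobase (0.882 to 2.20) and Gjb1 0.401 (0.0173 to 1.33), each overlapping the gene above it. Gjb6 stood at 34.3 CPM per kilobase (30.8 to 37.3), above every member in all libraries. The place of Gja1 depended on the length used. With the longest transcript in place of all exons its level was 15.5 CPM per kilobase (11.5 to 27.9), above Gjc1 at 7.69 (6.54 to 9.51) and Gjb2 at 7.39.

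**Figure D1:**
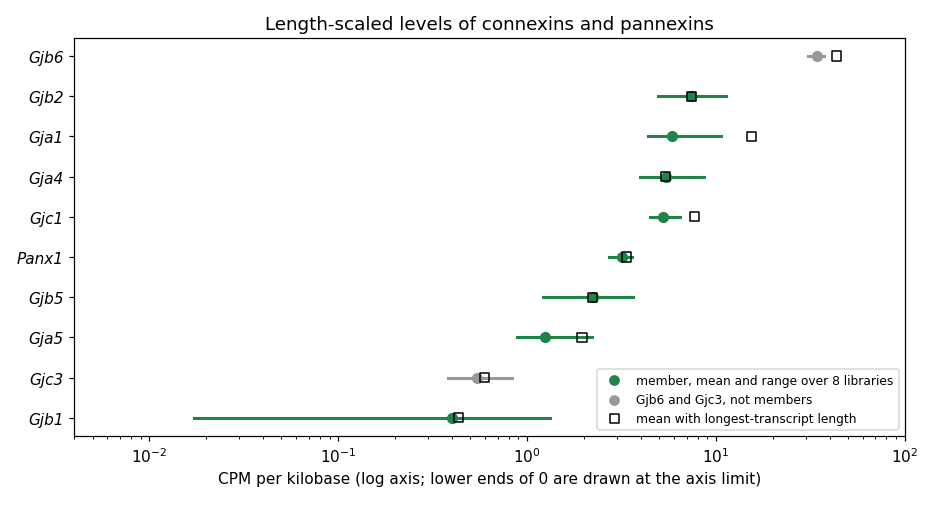
Length-scaled level (CPM per kilobase, log axis) of each member with any count and of Gjb6 and Gjc3: points are means and lines the range over 8 libraries, green for members and grey for Gjb6 and Gjc3, and open squares use the longest transcript. Gjb6 stands apart at 34.3, Gjb2, Gja1, Gja4 and Gjc1 overlap between 3.99 and 11.3, and Gja1 moves from 5.88 to 15.5 with the longest transcript.

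Panx3, a pannexin known from bone, cartilage and skin, had 0 counts in all 8 libraries. A count of 0 allows up to 3 counts, or 0.0825 to 0.110 CPM per library, for counting error only. Markers of those tissues were present in part. Of 8 bone and cartilage genes, Alpl averaged 167 CPM over the 8 libraries, Runx2 7.36 and Sp7 0.505, while the other 5 averaged at most 0.227 CPM. Of 6 skin genes, Ivl averaged 307 CPM, Krt10 7.71, Krt1 3.75 and Lor 0.0882, and Flg and Dsg1a had 0 counts everywhere.

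No member differed between NeMO and Sham past an adjusted p of 0.05 in edgeR's quasi-likelihood test over 16370 genes, where 12 genes (0.0733%) passed. Of the 8 members tested, all but Panx3, 6 were higher and 2 lower in NeMO. Gja4 and Gjb2 were the 2 with an unadjusted p under 0.05, both higher in NeMO, and 0 were lower. Among all genes tested, 9.38% were higher and 9.14% lower at that level. DESeq2 also called 0 members (2 at an unadjusted p under 0.05) beside 5.82% of all genes, and limma-voom 0 (1 at an unadjusted p under 0.05). The members' median log2 fold change, NeMO minus Sham, was 0.33, beside −0.01 over all genes tested. Both the median and the tally rested on NeMO replicate 3: without that library the median was −0.01, as over all genes (−0.01), with 4 members higher and 4 lower. The median was 0.56 without NeMO replicate 1, 0.45 in batch 1 alone and 0.06 in batch 2 alone. For 0 of the 8 did the 4 NeMO and 4 Sham values fail to overlap, against 8.19% of all genes (4.39% with NeMO above and 3.81% with NeMO below). NeMO replicate 3 had the highest value of all libraries in 6 of the 8 members, whereas it was highest for 15.6% of all genes tested.

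**Figure D2:**
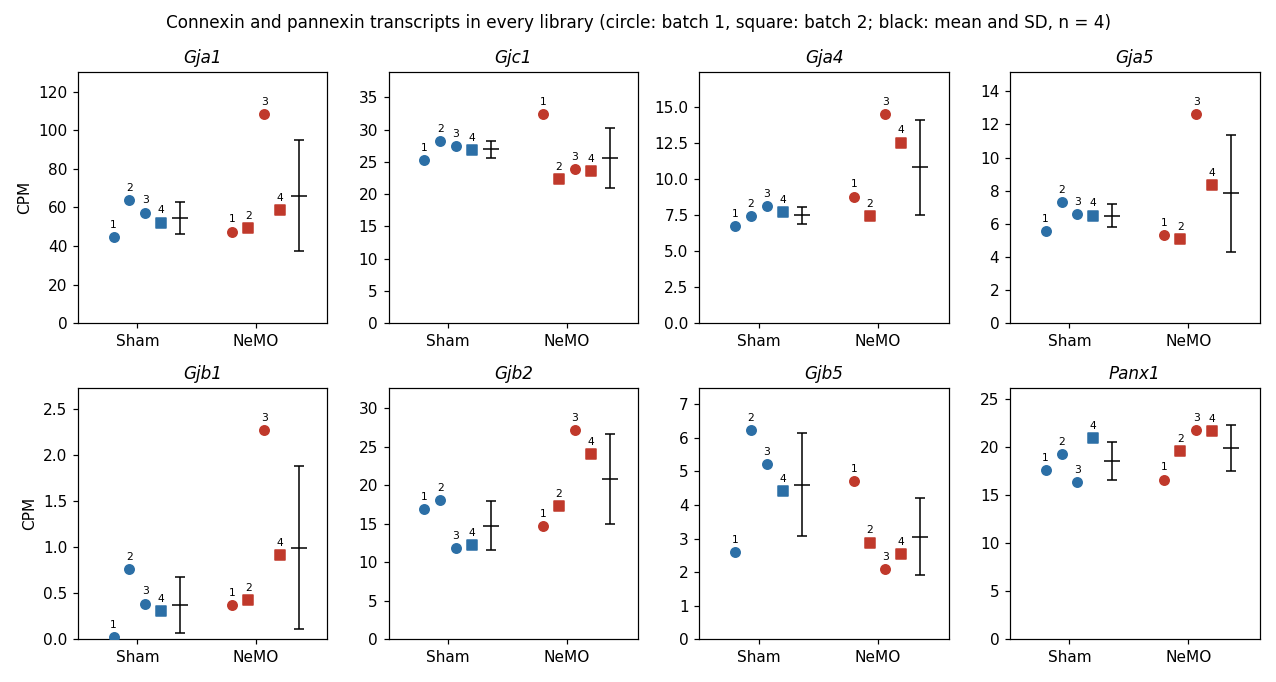
CPM of each tested member in every library (vertical axis, starting at 0), Sham in blue and NeMO in red, with the replicate number above each point and the mean and SD in black. NeMO replicate 3 is the highest library for Gja1, Gja4, Gja5, Gjb1, Gjb2 and Panx1 and the lowest for Gjb5.

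Gja1 encodes Cx43, the most widely expressed connexin. It measured 47.5, 49.4, 109 and 58.8 CPM in NeMO replicates 1 to 4 and 44.8, 63.8, 57.3 and 52.1 CPM in Sham replicates 1 to 4. A single NeMO library, replicate 3, lay above all others, and the other NeMO libraries fell inside the Sham range. The means were 66.0 ± 28.8 CPM in NeMO and 54.5 ± 8.07 in Sham (SD, n = 4 each), a log2 fold change of 0.34 (SE 0.27, edgeR adjusted p = 0.540). Without NeMO replicate 3 the log2 fold change was −0.090 (edgeR adjusted p = 0.822). It was 0.50 in batch 1 and 0.06 in batch 2, whose only Sham library is replicate 4. By levels over the 8 libraries, the tested genes most like Gja1 were St3gal4 (Pearson r = 0.95), Procr (0.95) and another member, Gja5 (0.95), a description with no test.

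Gjc1 encodes Cx45, a low-conductance connexin of smooth muscle. It measured 32.4, 22.3, 23.9 and 23.6 CPM in NeMO and 25.2, 28.2, 27.4 and 26.9 CPM in Sham. Here NeMO replicate 1 was the high library, while the other 3 NeMO values lay below every Sham value. The log2 fold change was −0.04 (SE 0.12, edgeR adjusted p = 0.888), with means of 25.6 ± 4.63 and 26.9 ± 1.27 CPM (SD, n = 4 each). Its sign changed in batch 1 alone (0.064) and without NeMO replicate 3 (0.040). It also changed without Sham replicate 4 (0.064), but that fit compares the groups within batch 1 only.

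The level of Gja1 relative to Gjc1, a ratio of CPM values not scaled for length, was 1.46, 2.21, 4.54 and 2.49 in NeMO and 1.78, 2.26, 2.09 and 1.94 in Sham. NeMO libraries stood both below and above the Sham range. Smooth muscle markers, summed over Myh11, Acta2 and 8 others, ran from 29667 to 54806 CPM in NeMO and from 34803 to 46686 in Sham. The lowest sum was that of NeMO replicate 3, at 29667, and the highest that of NeMO replicate 1. Summed markers of interstitial cells and fibroblasts ran from 7405 to 17110 CPM in NeMO and from 8004 to 10516 in Sham, again with NeMO replicate 3 at the top. Neither list had a gene past edgeR's threshold (0 of 10 and 0 of 10, with 0 and 3 at an unadjusted p under 0.05). Of those 3, Thy1 and Pdgfrb were higher and Cd34 was lower (log2 fold change −0.29). DESeq2 called 0 and 2 (Thy1 and Pdgfrb, both higher). Of the 10 interstitial and fibroblast genes 8 were higher in NeMO, and Kit had the most negative log2 fold change (−0.74). Per 1000 CPM of the interstitial and fibroblast sum, which its collagens dominate, Gja1 measured 5.81, 6.67, 6.34 and 5.37 in NeMO and 4.26, 7.98, 6.03 and 6.29 in Sham. On that scale NeMO replicate 3 lay inside the range of the Sham libraries. Per 1000 CPM of smooth muscle markers, Gja1 measured 0.866, 1.36, 3.66 and 1.22 in NeMO and 1.29, 1.54, 1.36 and 1.116 in Sham, and there NeMO replicate 3 lay far above every Sham library. Gjc1 per 1000 CPM of smooth muscle markers overlapped between the groups, at 0.491 to 0.806 (NeMO) and 0.575 to 0.724 (Sham). In bulk tissue, fewer cells of a type and less RNA per cell cannot be told apart.

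Gja4 encodes Cx37, a connexin of arterial endothelium. It measured 8.77, 7.42, 14.5 and 12.5 CPM in NeMO and 6.72, 7.41, 8.11 and 7.67 CPM in Sham. NeMO replicates 1, 3 and 4 lay above every Sham library, and replicate 2 lay within the Sham range. The means were 10.8 ± 3.28 and 7.48 ± 0.585 CPM (SD, n = 4 each), with a log2 fold change of 0.55 (SE 0.22, unadjusted p = 0.0297, edgeR adjusted p = 0.224). The value was 0.65 in batch 1 and 0.39 in batch 2, and 0.31 without NeMO replicate 3 (edgeR adjusted p = 0.560). Most like it over the 8 libraries were Fmnl3 (Pearson r = 0.98), Fxyd6 (0.98) and Grem1 (0.97), a description with no test. These correlations were not corrected for group. Mean CPM in NeMO and Sham was 23.3 and 16.2 for Fmnl3, 62.0 and 34.2 for Fxyd6, and 22.8 and 0.638 for Grem1.

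Gja5 encodes Cx40, which shares vessel walls with Cx37. It measured 5.33, 5.07, 12.6 and 8.36 CPM in NeMO and 5.57, 7.31, 6.59 and 6.49 CPM in Sham. NeMO replicates 3 and 4 lay above the Sham libraries and replicates 1 and 2 below them. The log2 fold change was 0.32 (SE 0.29, edgeR adjusted p = 0.586), and it was −0.12 without NeMO replicate 3 (edgeR adjusted p = 0.854). In batch 2 alone it was 0.06 and in batch 1 0.47. The annotated span of Gja5 overlaps other genes, Gpr89 among them, and a pair of antisense RNAs on the other strand. No source used here gives the strand setting of the counting, so reads of those genes cannot be told apart from its own.

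Endothelial markers were highest in the same NeMO library. Their sum over 10 genes, all detected in every library, ran from 457 to 772 CPM in NeMO, highest in replicate 3, and from 527 to 619 in Sham. Of the 10, 9 were higher in NeMO with a median log2 fold change of 0.12. None passed edgeR's test (0 at an unadjusted p under 0.05) and DESeq2 called 0. Per 1000 CPM of that sum, Gja4 measured 16.1, 16.2, 18.8 and 18.9 in NeMO and 11.96, 14.1, 14.8 and 12.4 in Sham. These ratios did not overlap between the groups, with means of 17.5 ± 1.53 and 13.3 ± 1.34 (SD, n = 4 each). The ratio was computed after the values were seen, so it is given without a test. Gja5 on the same scale measured 9.81 to 16.4 in NeMO and 9.91 to 13.9 in Sham and overlapped. Every other ratio given here also overlapped between the groups, as did Gja4 unscaled. Without such scaling, 8.19% of all genes tested did not overlap. The part of endothelial content in the level of Gja4 or Gja5 was not tested further.

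**Figure D3:**
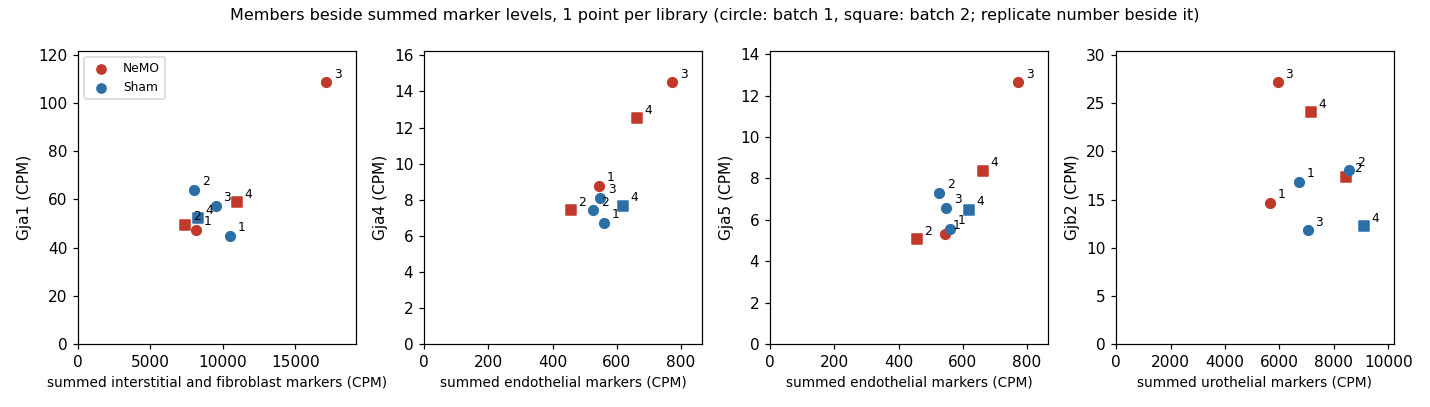
CPM of Gja1, Gja4, Gja5 and Gjb2 (vertical axes) against the summed CPM of marker genes (horizontal axes), 1 point per library, NeMO in red and Sham in blue. NeMO replicate 3 is at the upper right for Gja1, Gja4 and Gja5, at 17110 CPM of interstitial and fibroblast markers and 772 CPM of endothelial markers, but not for Gjb2, where its urothelial sum of 5932 CPM is among the lowest.

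Gjb2 encodes Cx26, a connexin of epithelia. It measured 14.7, 17.4, 27.2 and 24.1 CPM in NeMO and 16.9, 18.04, 11.8 and 12.2 CPM in Sham. NeMO replicates 3 and 4 exceeded every Sham library, while replicates 1 and 2 lay among them. The means were 20.8 ± 5.80 and 14.7 ± 3.18 CPM (SD, n = 4 each), a log2 fold change of 0.54 (SE 0.24, unadjusted p = 0.0484, edgeR adjusted p = 0.267). This was 0.43 in batch 1 and 0.77 in batch 2, 0.31 without NeMO replicate 3 and 0.79 without NeMO replicate 1 (edgeR adjusted p = 0.621 and 0.0506). Most like it over the 8 libraries were the laminin gene Lama3 (Pearson r = 0.98), Wipi1 (0.98) and Nfkbiz (0.97).

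Gjb5 encodes another epithelial connexin, known from stratified epithelia, and was the member with the most negative fold change. It measured 4.70, 2.88, 2.10 and 2.55 CPM in NeMO and 2.59, 6.23, 5.21 and 4.41 CPM in Sham. Its fold change was opposite in sign to that of Gja4, which lies near it on chromosome 4, a difference that was not tested. Sham replicates 1 and 4 lay within the NeMO range, and NeMO replicates 1 and 2 within the Sham range. The log2 fold change was −0.54 (SE 0.33, edgeR adjusted p = 0.417), and it ran from −0.93 without NeMO replicate 1 to −0.31 without NeMO replicate 3. Urothelial markers summed to 5669 to 8452 CPM in NeMO and 6734 to 9109 in Sham, and 2 of 10 were higher in NeMO. In edgeR 0 of the 10 passed (5 had an unadjusted p under 0.05, all lower). DESeq2 called 5 lower, the uroplakins Upk1a, Upk2, Upk3a and Upk3b and the keratin Krt20. Per 1000 CPM of that sum, Gjb2 measured 2.05 to 4.58 in NeMO and 1.34 to 2.51 in Sham, and Gjb5 0.341 to 0.8292 in NeMO and 0.385 to 0.740 in Sham. Both ratios overlapped between the groups.

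Gjb1 encodes Cx32, best known from liver and from myelinating Schwann cells. It was close to the floor, with 13, 13, 78 and 33 counts in NeMO and 1, 22, 13 and 8 counts in Sham. Expressed as CPM these were 0.373, 0.430, 2.27 and 0.913 in NeMO and 0.0295, 0.762, 0.389 and 0.304 in Sham. NeMO replicates 3 and 4 lay above every Sham library. The log2 fold change was 1.58 (SE 0.81, edgeR adjusted p = 0.338). It was 0.50 without NeMO replicate 3 and 1.18 without Sham replicate 1, the library with 1 count. Of the markers of its known sources, 0 of 8 nerve and Schwann cell genes were higher in NeMO (median log2 fold change −0.62). Of these 0 passed edgeR's test, 4 were lower at an unadjusted p under 0.05, and 1 (Uchl1) fell in DESeq2. The sum of the 8, mostly Uchl1, was lowest in NeMO replicate 3, at 219 CPM. Of 8 liver genes 3 passed the filter on low counts, with 0 past edgeR's threshold (1, Alb, lower at an unadjusted p under 0.05 and called lower by DESeq2). Their log2 fold changes were −1.99 for Alb, −0.94 for Ttr and 0.0030 for Apoa2. Below the filter, Cps1 averaged 0.253 CPM in NeMO and 0.0767 in Sham, and Apoc3 went the other way, at 0.115 and 0.353. Apoa1, Serpina1a and Fgb averaged at most 0.0277 CPM in either group.

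Panx1, the ATP-releasing pannexin, had a fold change smaller than its standard error. It measured 16.6, 19.6, 21.8 and 21.6 CPM in NeMO and 17.6, 19.3, 16.3 and 20.9 CPM in Sham, and the groups overlapped over most of their range. The means were 19.9 ± 2.41 and 18.5 ± 2.00 CPM (SD, n = 4 each), a log2 fold change of 0.07 (SE 0.12, edgeR adjusted p = 0.805). The sign changed in batch 2 alone (−0.014), without NeMO replicate 3 (−0.060) and with the trend by transcript length and GC content removed (−0.0091).

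**Figure D4:**
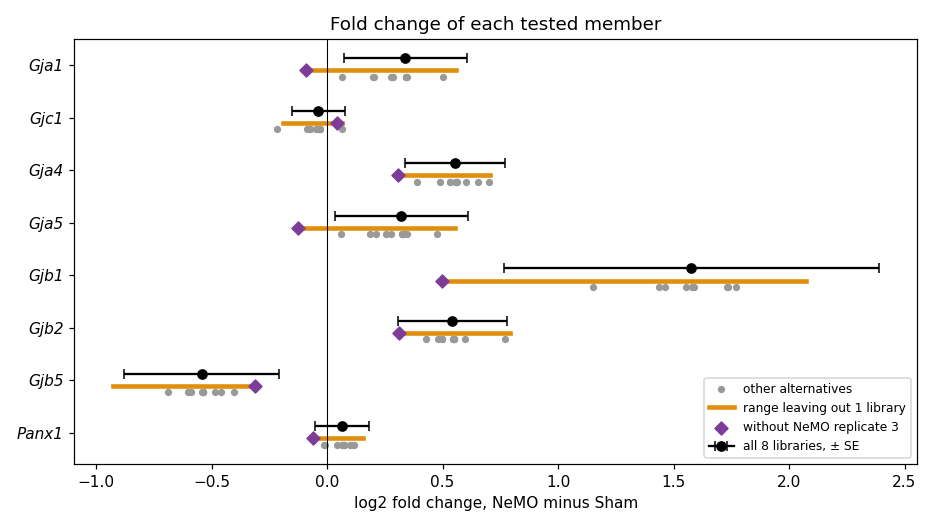
Log2 fold change of each tested member, NeMO minus Sham: black points with SE bars use all 8 libraries, orange lines span the fits that leave out 1 library, purple diamonds leave out NeMO replicate 3 and grey points are the other alternatives. Leaving out NeMO replicate 3 moves Gja1 from 0.34 to −0.090 and Gja5 from 0.32 to −0.12, while Gja4, Gjb1 and Gjb2 stay above 0 and Gjb5 below 0 in every fit.

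The rest of the family was described from a list of 14 genes, of which 5 passed the filter on low counts and 5 had 0 counts in every library. None passed edgeR's test (0 at an unadjusted p under 0.05, and 0 in DESeq2 or limma-voom), with 2 higher, 3 lower and a median log2 fold change of −0.12. Gjb6, the most abundant, measured 82.3 to 99.4 CPM in NeMO and 88.8 to 99.9 in Sham, with a log2 fold change of −0.12 (SE 0.07) and an edgeR adjusted p = 0.423. Gjb6 lies close to Gjb2 on chromosome 14. Gjc3, a connexin of myelinating glia, had a log2 fold change of 0.13 and also overlapped between groups.

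Genes that bind, traffic or phosphorylate connexins were counted from a list of 26. None passed in edgeR (0 of 26). An unadjusted p under 0.05 in edgeR was found for 3 of 26, each higher in NeMO, against 9.38% of all genes. DESeq2 called 2 of 26, Tjp1 and Nov, both higher, against 5.82% of all genes in either direction. In limma-voom 0 passed. In all 17 were higher and 9 lower, and the median log2 fold change was 0.05. For 3 of the 26 (Tjp1 and Nov among them) the NeMO values lay wholly above the Sham values, against 4.39% of all genes. Tjp1, the ZO-1 scaffold that binds the tail of Cx43, measured 296 to 328 CPM in NeMO and 225 to 279 in Sham, a log2 fold change of 0.35 (SE 0.09) with edgeR adjusted p = 0.118. Nov, a secreted CCN family protein reported to bind Cx43, measured 19.2 to 66.4 CPM against 8.10 to 16.2 (1.61, SE 0.40, edgeR adjusted p = 0.129). The desmosomal gene Pkp2 had a log2 fold change of 0.30 (edgeR adjusted p = 0.175).

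Other routes of ATP release, a list of 6 with 5 tested, gave 0 past edgeR's threshold (1 higher at an unadjusted p under 0.05, and 0 in DESeq2 or limma-voom) and a median log2 fold change of −0.0034. The ATP-gated channel gene P2rx7 stood at 0.26 (SE 0.11, edgeR adjusted p = 0.241) and the vesicular nucleotide transporter Slc17a9 at 0.61 (SE 0.27, edgeR adjusted p = 0.271). Vdac1 and Calhm2 stood at −0.18 and −0.19 (edgeR adjusted p = 0.350 and 0.480). The taste-cell ATP channel gene Calhm1 had 0 counts in every library.

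The remaining marker lists checked the tissue. The bladder's smooth muscle and urothelial genes were all detected in every library. Summed per library, macrophage markers ran from 206 to 451 CPM in NeMO and 389 to 584 in Sham, and adipocyte markers from 574 to 1542 and 1342 to 3083. Several of the other sums came mostly from 1 gene. Mesothelial markers, mostly Upk3b (330 CPM on average, also in the urothelial list), ran from 272 to 409 and 345 to 628. Skeletal muscle markers, mostly Acta1 (822 CPM on average), ran from 714 to 1259 and 779 to 1049 CPM. Nerve and Schwann cell markers, mostly Uchl1 (299 CPM on average), ran from 219 to 396 and 370 to 443. Liver markers, mostly Ttr (26.2 CPM on average), ran from 13.7 to 35.0 and 15.6 to 59.4 CPM. Bone and cartilage markers, mostly Alpl, ran from 119 to 204 and 168 to 253, and skin markers, mostly Ivl, from 292 to 333 and 275 to 366. Markers of male accessory glands summed to at most 0.139 CPM, with Svs1, Svs4, Pate4 and Pbsn at 0 counts. With the urothelial list these lists had 0 genes past edgeR's threshold. At an unadjusted p under 0.05 in edgeR, 1 was higher and 18 were lower (Upk3b counted under both of its lists), against 9.38% and 9.14% of all genes. The lists with the most lower genes were urothelium (5 of 10), adipocyte (4 of 8) and nerve and Schwann cell (4 of 8). DESeq2 called 1 higher and 11 lower, against 5.82% of all genes in either direction. The part of these lists in the members' levels was not tested.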

How the data were processed

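Bladder polyA RNA went into strand-marking libraries and single-end Illumina sequencing, per the labels' protocols. Each library has a deposited table of raw read counts by gene symbol. Per the submitters' processing notes, Trimmomatic, STAR, featureCounts and DESeq2 are named, with genome build mm10. The counting annotation, its strand setting and its treatment of multi-mapping reads are not stated in the labels. Sample titles gave the groups and replicate numbers.

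The main test used edgeR 4.0.16 in R 4.3.3 (quasi-likelihood F-test, robust, batch and group as terms, TMM, filterByExpr with minimum count 10 and minimum total count 15, two-sided, Benjamini-Hochberg over 16370 genes). Standard errors are the absolute log2 fold change over the root of F. DESeq2 1.42.0, limma 3.58.1 (voom) and other scalings, filters, terms and library sets were alternatives. Totals of 27212499 to 36375313 put the floor of 3 counts at 0.0825 to 0.110 CPM. Gene lengths come from GENCODE M21 on GRCm38 and promoter letters from RefSeq GRCm38.p6. Of 38926 symbols, 35656 matched GENCODE directly and 1787 through a RefSeq synonym. The test was tested on simulated data of 16370 genes: of 100 genes shifted by 1 log2 unit it found 67, and of 100 shifted by 2 it found 95, with 9 false calls. The simulated counts were drawn independently, with no batch effect. Shifts under 1 log2 unit, the size fitted for every tested member but Gjb1, were not simulated, so these rates do not cover them.

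The text names all 9 members. It also names the other family genes with at least 1 CPM and, in each list of partner or ATP-release genes, the 4 with the smallest p. Some genes that this rule names are not reported here. For the 3 members with the highest CPM per kilobase it names the 3 genes with the highest Pearson correlation (log2 CPM, prior count 2). The correlations ran over all 8 libraries and were not corrected for group or batch. Marker genes named singly and the ratios to marker sums were chosen after their values were seen. The members and lists were chosen with earlier results of these data known.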

Additional observations from a re-analysis of the deposited data

Results flagged for a closer look

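Gjc1 in NeMO replicate 1, at 32.4 CPM, stood apart from the other 3 NeMO libraries (22.3 to 23.9 CPM): its gap to the nearest of them was 0.842 of the group's whole range, above Dixon's 95% critical value for 4 samples. This was 1 of 16 groups of 4 examined (8 members in NeMO and in Sham), and chance flags about 1 in 20. Without that library the log2 fold change of Gjc1 was −0.19 (edgeR adjusted p = 0.306). The gap of Gja1 in NeMO replicate 3, 0.814 of the range, fell short of the same value.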

How the results depend on the processing

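No member passed the threshold under any of the 19 alternatives run (0 of 8 members in each, 0 of 7 with at least 1 CPM in at least 4 libraries, where Gjb1 was not tested). Of 151 member values under the alternatives, 143 kept their direction and 8 changed sign. Without NeMO replicate 3 those were Gja1 (−0.090), Gja5 (−0.12), Gjc1 (0.040) and Panx1 (−0.060). Panx1 also changed in batch 2 alone (−0.014) and with the length and GC trend removed (−0.0091). Gjc1 also changed in batch 1 alone (0.064) and without Sham replicate 4 (0.064). Sham replicate 4 is the only Sham library of batch 2. The fit without it compares the groups within batch 1 only and is no separate result from batch 1 alone. Leaving out 1 library moved the log2 fold change over −0.09 to 0.56 for Gja1, 0.31 to 0.71 for Gja4, −0.12 to 0.56 for Gja5, −0.19 to 0.06 for Gjc1, 0.50 to 2.07 for Gjb1, 0.31 to 0.79 for Gjb2, −0.93 to −0.31 for Gjb5 and −0.06 to 0.15 for Panx1. The smallest adjusted p of any member was 0.0506 (Gjb2 without NeMO replicate 1, edgeR). At an unadjusted p under 0.05 there were 5 members without NeMO replicate 1 and 0 without NeMO replicate 3 or NeMO replicate 4.

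Over all genes, 12 passed in edgeR. The number was 953 with DESeq2, 5 with limma-voom, 172 without the filter on low counts, 7 without the batch term, 0 in batch 1 alone (1756 at an unadjusted p under 0.05 in edgeR) and 7 in batch 2 alone, and it ran from 0 to 652 when 1 library was left out (0 without NeMO replicate 4 or Sham replicate 4, 652 without NeMO replicate 1). The cause was not tested. The length of Gja1, Gja5 and Gjc1 moved their level per kilobase, to 15.5, 1.95 and 7.69 with the longest transcript.

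With the replicate number as a block, 0 genes passed over all genes (2648 at an unadjusted p under 0.05 in edgeR) and 0 members, and 9 genes passed with the block and the length and GC trend removed. Whether the numbers pair the samples is not known. The correlations of same-numbered deviations were −0.01, 0.08, 0.04 and 0.32. NeMO replicates 2 and 4 correlated best with the Sham library of the same number. NeMO replicate 1 correlated best with Sham replicate 3 (0.14) and NeMO replicate 3 with Sham replicate 1 (0.25). The deviations were not corrected for batch, so these values cannot settle the pairing. Gjb1, with 1 to 78 counts, is limited by depth.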
